A study of Mus musculus with 18 samples.

Results

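The genes described here are the nuclear genes for subunits of respiratory complexes II, III and IV, cytochrome c and the ATP synthase (complex V). They were chosen by name: protein-coding genes whose symbol starts with Uqcr, Atp5 or one of Cox4, Cox5, Cox6, Cox7 and Cox8, together with Sdha, Sdhb, Sdhc, Sdhd, Cyc1 and Cycs, with the Cox6a1 and Cox6a2 pair left out. This gave 46 of the 15888 protein-coding genes, and of 27830 genes in all: 4 of complex II, 9 of complex III with Cyc1, cytochrome c itself, 15 of complex IV and 17 of the ATP synthase. The study compared CD8+ T cells, the cytotoxic T cells, from 8-week-old wild-type (WT) mice and mice with a conditional knockout (cKO) of Hspa9, the gene of the mitochondrial chaperone GRP75. The source was lymph node and spleen, and the effector and memory cells were derived in culture from the naive cells, with no Cre driver, mouse strain or sex given in the labels. Poly-A RNA was sequenced as 18 libraries, 3 for every combination of genotype and subset, and nothing in the labels says which libraries came from separate mice, so p-values measure the spread between these libraries.

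Complex II passes electrons from succinate to ubiquinone, complex III passes them on to cytochrome c, and complex IV hands them to oxygen. Complexes III and IV pump protons as they work, and the ATP synthase uses the proton gradient to make ATP. Complex II is encoded wholly in the nucleus, while complexes III and IV and the ATP synthase each combine nuclear subunits with subunits made inside the mitochondrion, which the nuclear products must reach by import, a process in which GRP75 is the matrix motor. Naive and memory T cells rely largely on this machinery, and effector cells add intense glycolysis to it.

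Values are normalised reads, the read count of a gene divided by 1 size factor for the library, unless another scale is named. The libraries held between 14771251 and 18049774 reads assigned to genes. Of the 46 members, 44 were listed in all 3 subsets and reached the minimum of 10 normalised reads, in 3 libraries or more, in every comparison. The other two were heart and lung isoforms with almost no reads: Cox8b, listed in the naive table at no more than 1.05 normalised reads, and Cox4i2, listed in the effector and memory tables at no more than 4.05. Among the 44 members tested, 36 averaged at least 500 normalised reads in naive cells and 38 in each cultured subset.

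Several facts about the libraries bear on every result. Hspa9 itself was higher in the libraries labelled cKO in each subset, by 0.69 on the log2 scale among naive libraries, 0.16 among effector and 0.48 among memory libraries (limma, adjusted p = 1.3e-05, 0.0335 and 0.00034). This goes against the label at the level of the transcript, the deleted exons are not given, and groups are therefore called by their labels. The naive groups also differed in sex markers: Xist averaged 16393 normalised reads in WT and 4428 in cKO libraries, while the Y-linked gene Ddx3y had 0 reads in the WT libraries and averaged 2907 normalised reads in the cKO libraries, so genotype and sex cannot be told apart there. Markers of other blood cells moved with genotype in all 3 subsets. Every gamma-delta T cell gene tested was higher in cKO libraries (naive 4, effector 5, memory 4). The summed level of the 6 genes on that list lay between 9.61 and 11.1 CPM (reads scaled to a fixed library total) in naive WT and between 50.5 and 59.2 in naive cKO libraries, between 9.01 and 9.67 against 64.0 and 66.7 in effector, and between 16.0 and 16.8 against 117.7 and 152.8 in memory libraries. Of the 12 myeloid genes 9 were higher and 1 was lower in effector cKO libraries. All 12 were higher in memory cKO libraries, where their sum went from between 37.8 and 40.5 to between 290.2 and 389.5 CPM. Of 8 erythroid genes 8 were higher in effector and 5 in memory cKO libraries. NK cell genes were higher in 3 and lower in 2 of 5 in effector and higher in 4 of 5 in memory cKO libraries. B cell genes were higher in 2 of 7 in effector and 4 of 7 in memory cKO libraries, with a memory sum between 742 and 811 CPM in WT and between 1345 and 1617 in cKO libraries. In naive cKO libraries 3 of 6 B cell genes tested were higher and 2 lower, and 2 of 3 NK cell genes were lower. CD4 T cell genes were higher in 4 of 5 in naive cKO libraries. Their naive sum lay between 57.4 and 66.2 CPM in WT and between 104.4 and 121.9 in cKO libraries. In effector cKO libraries 1 was higher and 1 lower, and in memory 2 were higher and 1 lower. The memory mean of that sum went from 256 CPM in WT to 148 in cKO libraries. All 6 CD8 T cell markers were detected in every group, with 5 of them lower in naive cKO libraries. Of these markers 1 was higher and 2 were lower in effector, and 3 were lower in memory cKO libraries. The mean of their sum went from 4536 CPM in WT to 4021 in cKO libraries in naive cells. It went from 4748 to 4221 CPM in effector and from 4083 to 3336 CPM in memory cells. Markers of cell state differed too. Of 5 naive or memory genes, 4 were lower and 1 higher in naive cKO libraries. In effector cKO libraries 2 were lower and 2 higher, and in memory cKO libraries 5 were lower. Of 5 effector genes, 4 were higher and 1 lower in both naive and memory cKO libraries, and 2 were higher in effector. The naive mean of their sum nonetheless went from 72.7 CPM in WT to 50.3 in cKO libraries. The part of sex, of these cells and of cell state in the results below was not tested. In such bulk samples fewer cells of a type and less RNA per cell cannot be told apart.

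In naive cells, some nuclear subunit genes of complexes III to V were lower in the libraries labelled cKO, though most of the genes did not pass the test. In complex II only Sdha passed. Of the 44 members, 0 were higher and 15 were lower at an adjusted p under 0.05 (limma), where 24.9% of all genes tested were called, 12.9% higher and 11.9% lower. The log2 fold change was below 0 for 40 of the 44, with a median of -0.23, against -0.01 for all 13885 genes tested. In 19 members all 3 cKO libraries lay below all 3 WT libraries, a pattern found in 19.6% of all genes, and in 0 members did they all lie above, against 20.3% of all genes. By complex, the lower genes were 1 of 4 in complex II, 4 of 9 in complex III, 4 of 13 in complex IV, 6 of 17 in the ATP synthase, and cytochrome c was not among them.

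The largest decrease was in complex III, in Uqcrh, the hinge protein that helps cytochrome c dock on cytochrome c1. Its 3 WT libraries had 2266, 1812 and 1996 normalised reads and its 3 cKO libraries 1236, 1289 and 1009. Every cKO library was below every WT library, and the log2 fold change was -0.78 with a standard error (SE) of 0.10 (limma, adjusted p = 0.000251). The gene lies on chromosome 4 from 115924162 to 115932268 (GRCm39, minus strand). Of this span, introns included, 297 bases overlap a processed pseudogene, Gm12854, on the opposite strand. Whether exons overlap was not examined, and reads from a shared exon cannot be told apart without a stated strand setting.

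Cox7a2l, also known as SCAFI, was the next clear case. It lies on chromosome 17 from 83809347 to 83824759 (GRCm39, minus strand) and encodes a relative of a complex IV subunit that joins complexes III and IV into supercomplexes, and some laboratory mouse strains carry a shortened form of it. WT naive libraries had 6680, 6527 and 6186 normalised reads and cKO libraries 4247, 3889 and 3996. The groups were far apart relative to their spread, and the gene stood at -0.68 on the log2 scale (SE 0.06; adjusted p = 1.34e-05 by limma). Per base of gene length it was the most abundant member in WT naive cells, at 836 ± 40.8 TPM (read share per base of exon, scaled to a fixed sum; mean ± SD, n = 3), ahead of the ATP synthase alpha and beta subunit genes Atp5a1 at 505 ± 12.2 TPM and Atp5b at 426 TPM, whose ranges did not overlap with it or with each other.

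Other decreased genes of complex III were Uqcrb (-0.56), a small matrix-side subunit, Cyc1 (-0.31), the haem-bearing cytochrome c1, and Uqcrc1 (-0.29), a core protein. Uqcrb had 404, 366 and 403 normalised reads in WT and 250, 312 and 236 in cKO libraries, again without overlap. Uqcr11 had a fitted value as low, -0.55, but its WT libraries ranged from 198 to 313 and its cKO libraries from 123 to 203, and it missed the threshold (limma, adjusted p = 0.079). For Uqcrq and Uqcrc2 the values were 0.06 and -0.04, and neither passed the test. The Rieske iron-sulfur protein gene Uqcrfs1 stood at -0.15 (limma, adjusted p = 0.19).

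In complex IV, Cox6b1, a subunit on the intermembrane side, had 1059, 774 and 1020 normalised reads in WT and 668, 708 and 492 in cKO libraries, which put it at -0.61 on the log2 scale (SE 0.15; adjusted p = 0.0102 by limma). The widely expressed isoform Cox4i1, which carries a site for regulation by ATP, had 2907, 2500 and 2564 normalised reads in WT and 2080, 1945 and 1778 in cKO libraries, and fell by 0.46 on the log2 scale. Cox7b, an X-linked gene, fell by 0.34. The remaining complex IV genes did not pass, among them Cox5a at 0.06, Cox5b at -0.21 and Cox6c at -0.20, and the tissue isoforms Cox7a1 and Cox6b2, which had means of at most 16.6 normalised reads in either naive group and wide errors.

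Among ATP synthase genes, Atp5k, the e subunit that helps synthase dimers form, had 209, 134 and 205 normalised reads in WT and 117, 121 and 94.3 in cKO libraries (log2 fold change -0.70, SE 0.19). Atp5h and Atp5d, the d subunit of the stator stalk and the delta subunit of the rotor stalk, fell by 0.52 and 0.41, and Atp5d had 1787, 1836 and 1653 normalised reads in WT against 1327, 1333 and 1297 in cKO libraries. In Atp5d, 2204 bases of the span overlap Cbarp on the opposite strand, so its reads may be uncertain in the same way as those of Uqcrh. The exons of Atp5d come to 1928 bases, so this overlap takes in more than exons. The same holds for Uqcrb (465 bases), Cox4i1 (352), Atp5l (547), Uqcrc1 (609), Sdha (339) and Atp5a1 (158). In all, 18 members overlap another listed gene. Atp5j2 and Atp5l, the f and g subunits of the membrane part, fell by 0.47 and 0.36, and the catalytic head gene Atp5a1 fell by 0.17. The 3 genes for the c subunit, whose ring turns as protons pass, stood at -0.31 for Atp5g1, -0.14 for Atp5g2 and -0.18 for Atp5g3, and none of the 3 passed.

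Of the 4 genes of succinate dehydrogenase, Sdha, the flavoprotein, fell by 0.21, with 4450, 4109 and 4324 normalised reads in WT and 3905, 3743 and 3522 in cKO libraries. The call of Sdha was lost in 8 of 15 alternatives. Sdhc stood at -0.26 (limma, adjusted p = 0.053), Sdhb at -0.13 and Sdhd at -0.02. Cycs, the electron carrier between complexes III and IV, had 777, 686 and 778 normalised reads in WT and 738, 760 and 627 in cKO libraries, and these overlapped.

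**Figure D1:**
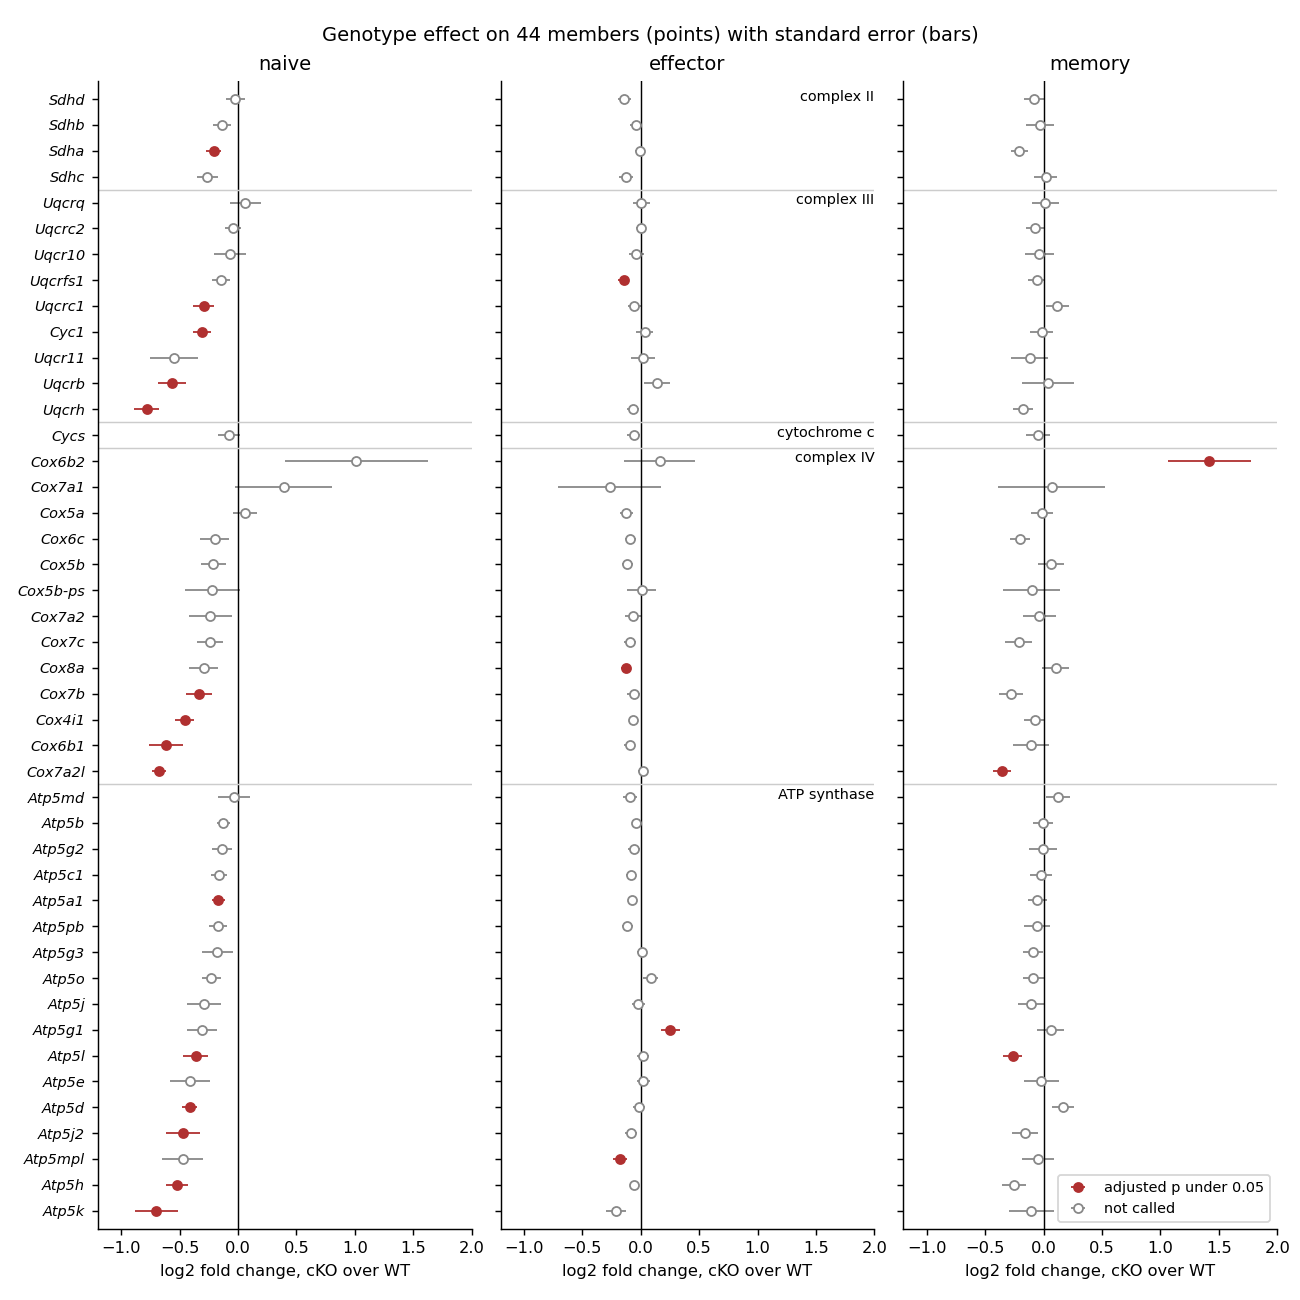
Log2 fold change between the libraries labelled cKO and WT (x axis) for each of the 44 members (y axis, grouped by complex), in naive, effector and memory cells, with the standard error as bars and filled points for an adjusted p under 0.05 (limma). In naive cells 40 of 44 points lie left of 0 and 15 are filled, while 4 are filled in effector and 3 in memory cells.

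The naive count depended on the libraries and on the scaling. WT replicate 2 and cKO replicate 3 stood apart, since the median of the members relative to their naive mean was -0.04 and -0.31 on the log2 scale in those libraries, against 0.25 and 0.12 in the other two WT and -0.04 in each of the other two cKO libraries. Without WT replicate 2 the members lower were 24, without cKO replicate 3 they were 9, and without WT replicate 1 or 3 they were 8. Scaling to library totals moved the median of all naive genes to 0.11, left the median of the members at -0.11, and gave 0 members higher and 8 lower, with 2883 genes higher and 818 lower in all. Of the 15, 7 were called in every alternative run: Uqcrh, Cox7a2l, Cox6b1, Uqcrb, Atp5h, Cox4i1 and Atp5d. Of these, Uqcrh, Uqcrb, Cox4i1 and Atp5d overlap a gene on the opposite strand in their spans, introns included. The authors' deposited table called 16 members lower and none higher in naive cells.

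Short genes had lower values as a class in these naive libraries, members or not. Among genes with a mean of at least 500 normalised reads, the median log2 fold change was -0.41 for the 112 shorter than 1000 bases, of which 62 were lower, -0.23 for lengths of 1000 to 2000, -0.12 for 2000 to 4000 and -0.01 for 4000 bases and over. The members in the same length classes had medians of -0.29, -0.24, -0.17 and -0.25. Called lower were 33.3%, 35.3%, 25% and 50% of the members in these classes, against 55.4%, 41.7%, 25.7% and 12.5% of the abundant genes. The member classes held every member tested, including those with a naive mean below 500 normalised reads. In the shortest class these were Uqcr10, Uqcr11, Uqcrb, Atp5k, Cox5b-ps and Cox7a1. The medians and shares of members and abundant genes were therefore not compared at equal abundance. The longest class held 6 members. Uqcrh and Cox7a2l, at 1237 and 1478 bases, lay well below the median of their length class. Atp5k, Cox6b1 and Uqcrb were in the shortest class, where 55.4% of the abundant genes were lower, and they also lay below its median. Atp5k and Uqcrb themselves averaged below 500 normalised reads in both naive groups. The part of gene length in the decrease was not tested.

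**Figure D2:**
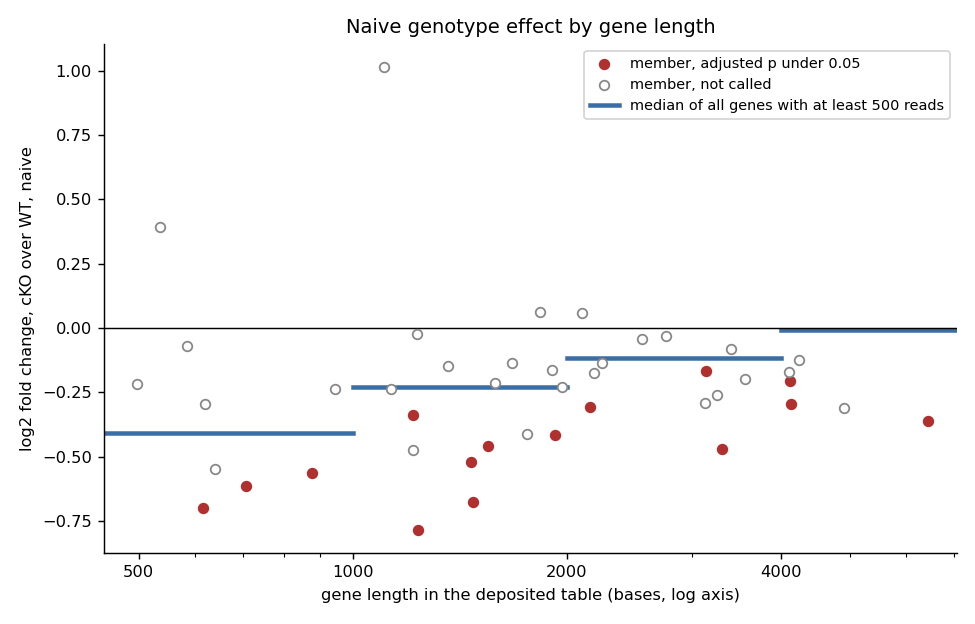
Log2 fold change between naive libraries labelled cKO and WT (y axis) against gene length in bases (x axis, log scale) for the 44 members (points, filled for an adjusted p under 0.05), with the median of all genes of at least 500 normalised reads in 4 length classes (blue lines). The blue lines go from -0.41 for the shortest to -0.01 for the longest genes.

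Nuclear respiratory genes are known targets of the factors NRF1, GABP (an ETS factor) and YY1, so their promoters are shown for 4 of the genes that fell most in naive cells and, for contrast, for Cycs and Atp5g1, which did not pass there. The stretch is the 100 bases before the transcription start, read 5′ to 3′ on the strand of the gene from RefSeq promoters (GRCm38.p6, a build other than that of the counts), with matches in capitals to the letters GCGCATG for NRF1 or CCGGAAG for ETS factors on either strand.
Uqcrh, chr4:116075071-116075170, minus strand: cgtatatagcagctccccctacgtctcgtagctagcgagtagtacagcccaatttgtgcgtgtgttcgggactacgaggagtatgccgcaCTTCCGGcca
Atp5k, chr5:108434400-108434499, minus strand: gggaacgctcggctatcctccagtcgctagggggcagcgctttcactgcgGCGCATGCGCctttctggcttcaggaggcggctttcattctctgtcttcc
Cox7a2l, chr17:83514334-83514433, minus strand: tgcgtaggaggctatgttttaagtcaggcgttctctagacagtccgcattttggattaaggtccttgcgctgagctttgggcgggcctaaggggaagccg
Cox6b1, chr7:30626115-30626214, minus strand: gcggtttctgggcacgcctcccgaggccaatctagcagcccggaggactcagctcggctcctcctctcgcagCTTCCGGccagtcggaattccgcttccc
Cycs, chr6:50566570-50566669, minus strand: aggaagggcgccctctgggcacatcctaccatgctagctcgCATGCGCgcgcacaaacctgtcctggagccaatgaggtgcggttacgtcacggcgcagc
Atp5g1, chr11:96075632-96075731, minus strand: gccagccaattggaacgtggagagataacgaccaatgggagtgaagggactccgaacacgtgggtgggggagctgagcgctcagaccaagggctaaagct
Atp5k holds 2 overlapping NRF1 matches on opposite strands, and Cycs, which did not pass, holds 1. Uqcrh and Cox6b1 each hold an ETS match close to the start, and Cox7a2l and Atp5g1 hold neither.

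Promoters of 35 of the 46 members were in the RefSeq set used, which left out chromosome 18, where Atp5a1 lies, and kept a single promoter per symbol. Over the 300 bases from 250 before to 50 after the start, the NRF1 letters occurred in 22.9% of the members' promoters, 8.62% of the promoters of genes with at least 500 normalised reads in naive cells, and 4.04% of all 27025 promoters. ETS letters occurred in 31.4%, 23.3% and 9.12%, and YY1 letters (AAGATGG) in 8.57%, 8.88% and 6.48%. Among the 11 matched members that were lower in naive cKO libraries, 3 had the NRF1, 5 the ETS and 1 the YY1 letters, and among the 23 tested and not called, 5, 6 and 2. These are matches of letters and not binding sites.

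In effector cells few of these genes differed between genotypes. Of 44 members, 1 was higher and 3 were lower, where 20.1% of all genes tested were called, 10.7% higher and 9.37% lower. In 13 members all 3 cKO libraries lay below all WT libraries, against 17.5% of all genes, and in 1 they lay above, against 17.9%. The median log2 fold change was -0.06, against -0.01 for all genes, and all members but the low isoform gene Cox7a1 (-0.27) lay between -0.21 and 0.25. The gene that rose was Atp5g1, a c-subunit gene on chromosome 11 from 95959678 to 95966496 (GRCm39, minus strand), with 525, 500 and 532 normalised reads in WT and 595, 702 and 567 in cKO libraries (log2 fold change 0.25, SE 0.08). Its paralogs Atp5g2 and Atp5g3, which encode the same mature protein behind different import signals, stood at -0.06 and 0.01.

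The 3 genes that fell were Atp5mpl, a small synthase-associated protein, Uqcrfs1 and Cox8a. Uqcrfs1 had 1858, 1871 and 1853 normalised reads in WT and 1763, 1612 and 1672 in cKO libraries, so that a log2 difference of -0.15 exceeded the spread. Atp5mpl stood at -0.18 and Cox8a at -0.13. All 4 calls were close to the threshold (limma, adjusted p between 0.0313 and 0.0491). No member was called in a single fit of all 18 libraries, without WT replicate 3 or without cKO replicate 2, and 1 was called without WT replicate 1 or cKO replicate 3, and the authors' deposited table called none of the members in effector cells. Uqcrh, Cox7a2l and Cox4i1 had values of -0.07, 0.02 and -0.06 with SE of at most 0.05.

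In memory cells 1 member was higher and 2 were lower, where 19.1% of all genes tested were called, 12.1% higher and 7% lower. In 4 members all cKO libraries lay below the WT libraries, against 16.8% of all genes, and in 1 they lay above, against 19.4%. The median was -0.05 against -0.02 for all genes, and it became 0.02 against 0.05 when libraries were scaled to their totals, which left 1 member higher and 1 lower, with 2259 genes higher and 639 lower in all, against 1769 and 1024. Cox7a2l again fell, with 5047, 5700 and 5167 normalised reads in WT and 4392, 3912 and 4093 in cKO libraries, which gave -0.36 on the log2 scale (SE 0.08; adjusted p = 0.00621 by limma), and this call held in every alternative. Atp5l had 1379, 1436 and 1289 normalised reads in WT and 1162, 1193 and 1059 in cKO libraries (-0.27, limma, adjusted p = 0.0346), with no overlap, but the call was lost in 6 of 15 alternatives.

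The gene that rose in memory cells was Cox6b2, the testis isoform of Cox6b1, on chromosome 7 from 4754791 to 4756093 (GRCm39, minus strand). Its level was low, with 11.2, 7.1 and 11.5 normalised reads in WT and 33.1, 29.8 and 21.5 in cKO libraries. Its log2 fold change was 1.42 (SE 0.36; limma, adjusted p = 0.016), and without cKO replicate 2 it was 1.37 with an adjusted p of 0.0576 (limma). In effector WT cells its level was 26.5 ± 3.94 normalised reads (SD, n = 3), on a table scaled separately. Cox6b1 in memory cells had 886, 1091 and 920 normalised reads in WT and 1195, 787 and 755 in cKO libraries, which overlapped.

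One memory library decided the count. cKO replicate 1 had members at a median of 0.17 on the log2 scale relative to the memory mean, against -0.10 and -0.17 in the other two cKO libraries, and WT replicate 2 stood at 0.16 against -0.05 and -0.03. Without cKO replicate 1, 1 member was higher and 10 were lower, with a median of -0.15, and without WT replicate 2 there were 1 and 1, with a median of 0.02.

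**Figure D3:**
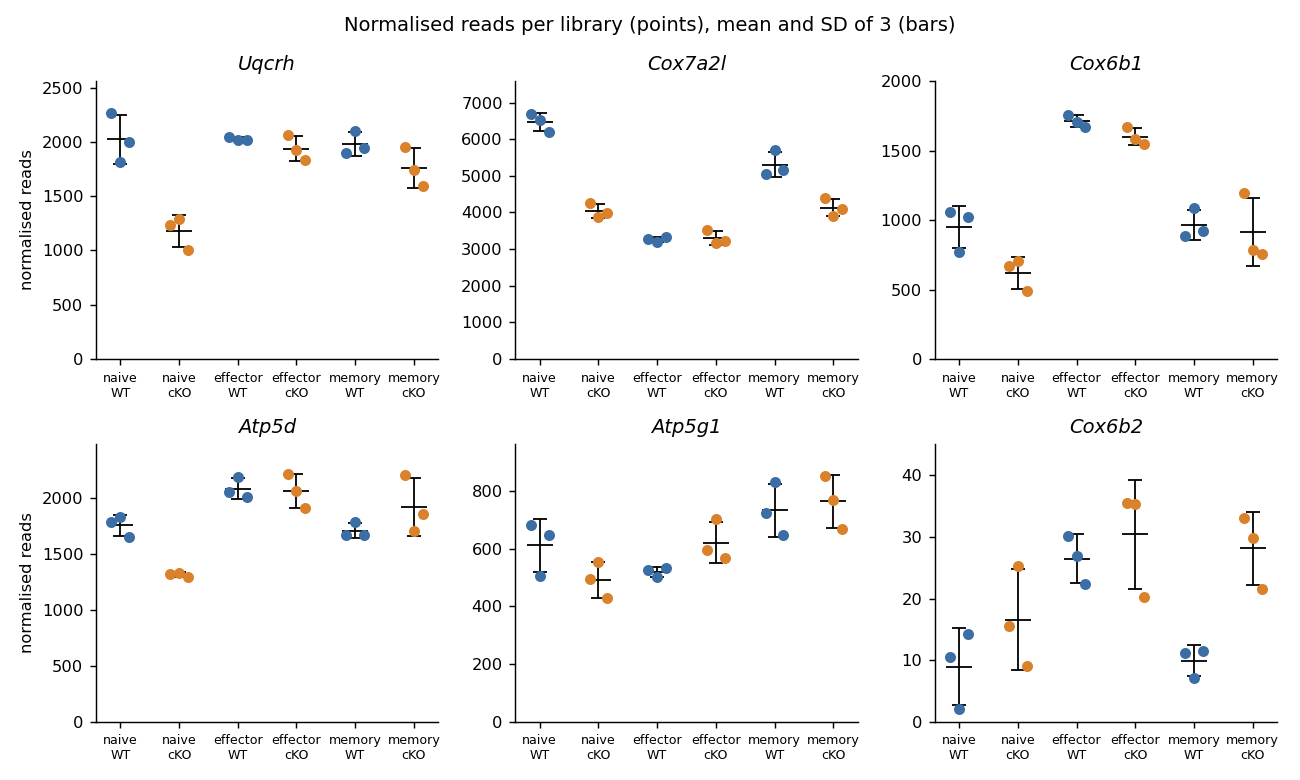
Normalised reads (y axis, from 0) of 6 members in each of the 18 libraries (points; blue WT, orange labelled cKO), with the mean and SD of 3 libraries as bars. Uqcrh, Cox7a2l, Cox6b1 and Atp5d show naive cKO libraries below all naive WT libraries, Atp5g1 shows the effector increase, and Cox6b2 shows the memory increase from 9.93 to 28.1 normalised reads. The tables of the 3 subsets were scaled separately, so heights can be compared within a subset.

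The genotype effects were then compared directly between subsets. The effect was higher in effector than in naive cells for 8 members and lower for 0, where 18.5% of all genes differed, 8.81% higher and 9.69% lower. The 8 were Uqcrh, Cox7a2l, Atp5g1, Atp5h, Atp5d, Cox4i1, Atp5l and Atp5o, with differences from 0.72 for Uqcrh (SE 0.13; limma, adjusted p = 0.000304) to 0.31 for Atp5o, the stalk subunit that confers oligomycin sensitivity. For Cox7a2l the difference was 0.69 (limma, adjusted p = 4.03e-06), which sets a naive change of -0.68 beside an effector change of 0.02. Scaled to library totals, which moved the median of all genes from -0.00 to -0.12, 2 members were called, Uqcrh and Cox7a2l, with 768 genes higher and 2324 lower in all against 1382 and 1520. Without naive cKO replicate 3, effector WT replicate 2 or effector cKO replicate 2 the members called were 5.

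Between memory and naive cells the effect was higher for 5 members and lower for 0, where 16.9% of all genes differed, 7.89% higher and 9% lower. These were Uqcrh (0.61), Atp5d (0.58), Uqcrc1 (0.41), Cox4i1 (0.38) and Cox7a2l (0.32). Uqcrh and Atp5d kept an adjusted p under 0.05 in every alternative, while Uqcrc1 lost it in 7 of 20. The members called were 3 without naive WT replicate 1 or memory WT replicate 3, 2 without memory WT replicate 1, 8 without naive WT replicate 2 or memory cKO replicate 3, and 9 without memory WT replicate 2. Both of these comparisons use the same naive libraries. Between memory and effector cells 1 member differed, Cox7a2l, at -0.38 (SE 0.09; limma, adjusted p = 0.00848), where 8.71% of all genes differed, 4.75% higher and 3.96% lower, and this held in every alternative. Scaling to library totals changed the split of all genes in that comparison from 745 higher and 622 lower to 1078 and 398.

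Cox7a2l was thus lower in cKO libraries by 0.68 in naive and by 0.36 in memory cells on the log2 scale and stood at 0.02 in effector cells, and each pair of these values differed. The difference between memory and naive cells lost its call in 2 of 20 alternatives. Its effector level in both genotypes, 3263 ± 63.3 and 3302 ± 181 normalised reads (SD, n = 3), was the lowest of the 3 subsets, on tables scaled separately.

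Subunits encoded in the mitochondrion gave another scale for these differences. All 6 mitochondrial genes for complexes III to V were lower in naive cKO libraries, with a median log2 fold change of -2.09, and 5 of 6 were lower in memory cKO libraries, with a median of -0.85, while in effector cells mt-Co1 and mt-Cytb were higher, by 0.25 and 0.34. mt-Co1, the catalytic core of complex IV, had 178609, 155173 and 181240 normalised reads in naive WT and 50078, 51046 and 43912 in naive cKO libraries. Because the nuclear genome holds copies of such genes, these totals are uncertain.

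Set against the nuclear members of the same complex, complex IV had between 10.1 and 11.1 mitochondrially encoded reads per nuclear-encoded read in naive WT libraries and between 3.82 and 4.12 in naive cKO libraries. In memory cells the ratio lay between 10.7 and 11.4 in WT and between 6.81 and 7.24 in cKO libraries. In effector cells it ran the other way, between 7.76 and 8.11 in WT and between 9.33 and 10.4 in cKO libraries. None of these ranges overlapped between genotypes, and the smallest two-sided p that an exact permutation test of 3 against 3 libraries can give is 0.1. For complex III the ratio was between 4.18 and 4.95 in naive WT and between 1.67 and 1.87 in naive cKO libraries, with the same order in memory and the opposite order in effector cells. ATP synthase ratios, which rest on the sparse mt-Atp6 and mt-Atp8 reads, separated in naive libraries only.

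**Figure D4:**
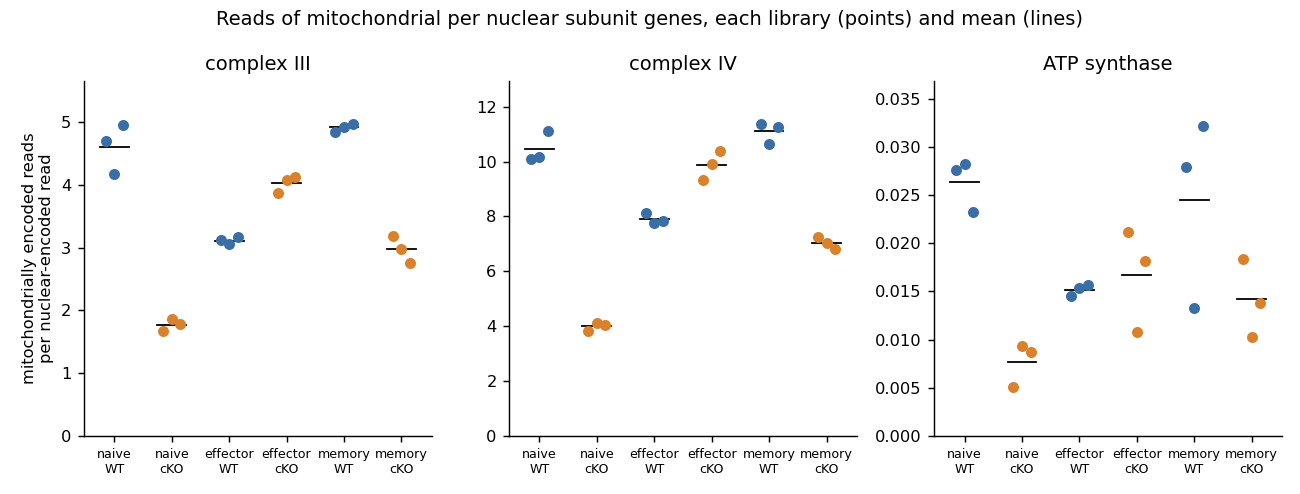
Reads of mitochondrially encoded genes per read of the nuclear members of the same complex (y axis, from 0, a separate scale for each panel) in each of the 18 libraries (points; blue WT, orange labelled cKO), with the mean of 3 as lines. For complex IV the naive cKO libraries sit between 3.82 and 4.12 and the naive WT libraries between 10.1 and 11.1.

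Few of the proteins that assemble these complexes were called. Of 43 assembly factors, 4 were higher and 3 lower in naive cKO libraries (16.3% called, against 24.9% of all genes). In effector cells 0 were higher and 3 lower (6.98% against 20.1%), and in memory cells 0 were higher and 2 lower (4.65% against 19.1%). The median log2 fold changes of the factors in naive, effector and memory cells were -0.03, -0.09 and -0.09. In naive cells the lower ones were Coa3 (-0.51) and Coa6 (-0.47), which serve complex IV, and Uqcc3 (-0.39), which serves complex III. Higher in naive cells were Fastkd1 (0.40), Coa7 (0.37), Lrpprc (0.31), which stabilises mitochondrial messenger RNA, and Hccs (0.29), which attaches haem to cytochromes c and c1. In effector cells the copper chaperone gene Cox17 fell from 1074 to 853 normalised reads, a log2 fold change of -0.33 (limma, adjusted p = 0.00045). Uqcc3 (-0.37) and Cox20 (-0.77) were the factors that fell in memory cells.

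Of 9 other respiratory proteins, Ndufa4, now counted as a complex IV subunit, was lower in naive (-0.43) and effector cells (-0.34), and Higd2a, a complex IV assembly protein, was lower in naive (-0.55) and higher in effector cells (0.31). Ghitm was higher in naive and memory cells, by 0.73 and 0.22. The ATP synthase inhibitor gene, listed as Atpif1, did not pass in any subset, with values of 0.20, -0.31 and 0.44. Among 10 regulators tested, Esrra (-0.39), a receptor that drives respiratory genes, fell and Myc (0.61) rose in naive cells, Myc rose by 0.38 in memory cells, and in effector cells Pprc1 rose by 0.29 and Sp1 fell by 0.18.

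The WT subsets were compared with edgeR on the recovered reads of the 9 WT libraries. In effector against naive cells 39 members were higher and 1 was lower, where 69.8% of all genes were called, 35.1% higher and 34.7% lower. The median log2 fold change of the members was 0.62, against -0.01 for all 14773 genes tested. Scaled to library totals, which put the median of all genes at -0.10, 37 members were higher and 3 lower. Complex IV had a median of 0.90, the ATP synthase 0.50, complex III 0.45 and complex II 0.41, and Cycs rose by 0.69. Together the members took between 0.4% and 0.451% of the reads of naive WT libraries and between 0.532% and 0.549% of those of effector WT libraries. Markers of other cells also differed between WT subsets. The myeloid sum averaged 4.88 CPM in naive, 115.8 in effector and 39.0 in memory WT libraries. For B cell genes the means were 450, 212 and 769 CPM, and for gamma-delta T cell genes 10.2, 9.24 and 16.3 CPM. The part of these cells in the WT differences was not tested.

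Cox5a, the subunit that binds thyroid hormone metabolites, had 35.8, 28.1 and 30.3 CPM in naive WT libraries and 74.1, 75.3 and 71 in effector WT libraries. Its log2 fold change was 1.32 (SE 0.09; edgeR, adjusted p = 5.21e-11). Cox5b, a zinc-binding subunit, rose by 1.14, and Atp5k by 1.33, from 10.8 ± 2.52 to 25.6 ± 1.07 CPM (SD, n = 3). Cox5b-ps, a copy of Cox5b by its name that the annotation lists as protein-coding, rose by 1.54 and may take reads from Cox5b. Cox6b2 rose by 1.74 from a low level, 0.628, 0.119 and 0.839 CPM to 1.88, 1.69 and 1.4. Atpif1, the inhibitor, was also higher, by 1.56.

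Cox7a2l was the exception, lower in effector than in naive WT cells. It had 398, 386 and 366 CPM in naive and 204, 200 and 208 CPM in effector libraries, a log2 fold change of -0.82 (SE 0.06; edgeR, adjusted p = 2.1e-10). Its paralogs moved otherwise: Cox7a2 rose by 0.89, and Cox7a1, at 9.49 ± 1.41 normalised reads in naive WT libraries (SD, n = 3), did not pass. Per base of length Cox7a2l therefore went from the first of the members in naive WT cells to 457 TPM in effector WT cells, behind Cox8a (696), Atp5a1 (654), Atp5h (564), Atp5b (529), Cox6b1 (500) and Cox4i1 (458), the last of which had an overlapping range. Gene length here covers all annotated exons, so TPM understates genes with long unused exons.

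Sdha (-0.11), Cyc1 (-0.14), Atp5g1 (-0.07) and Cox7a1 (0.90) did not pass between effector and naive WT cells. For Sdha the naive libraries had 265, 243 and 256 CPM and the effector libraries 221, 219 and 227, all lower in CPM, although the test, which rescales the libraries, gave an adjusted p of 0.0946 (edgeR). The other 3 genes of complex II rose, Sdhb by 0.75, Sdhd by 0.59 and Sdhc by 0.24. Of the c-subunit genes Atp5g3 rose by 0.63 and Atp5g2 by 0.36, while Atp5g1 had 40.6, 30 and 38.3 CPM in naive and 32.8, 31.3 and 33.4 in effector libraries.

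In memory against naive WT cells 17 members were higher and 2 lower, where 39.1% of all genes were called, 21.2% higher and 17.9% lower, with a median of 0.16 against 0.00 for all genes. Of the 13 complex IV genes tested 8 rose, and of the 17 ATP synthase genes 5. The largest increases were in Cox5b-ps (0.62), Atp5md (0.48), Cox5a (0.45), Cox7a2 (0.43) and Cox5b (0.37). The call of Cox5b-ps was lost without naive WT replicate 2 or memory WT replicate 3 (edgeR, adjusted p = 0.0587 and 0.107). Atp5md, which supports synthase dimers, had 29.7, 21.1 and 25.3 CPM in naive and 32.8, 37.2 and 32.6 in memory WT libraries, without overlap. Cycs rose by 0.36. Cox7a2l fell by 0.22, with 306, 338 and 313 CPM in memory libraries, and Cyc1 fell by 0.23, the latter a call lost without memory WT replicate 3 and in a single fit of all 18 libraries (edgeR, adjusted p = 0.0634 and 0.0695).

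Memory against effector WT cells was close to the reverse of effector against naive cells, with which it shares the effector libraries: 3 members were higher and 34 lower, where 64.6% of all genes were called, 32.6% higher and 32% lower. The median of the members was -0.40, against 0.03 for all genes. Those higher were Cox7a2l (0.60), Atp5g1 (0.39) and Sdha (0.18), and the largest decreases were in Cox6b2 (-1.50), Atp5k (-1.36), Atp5h (-0.94), Cox6b1 (-0.93) and Cox5b-ps (-0.92).

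**Figure D5:**
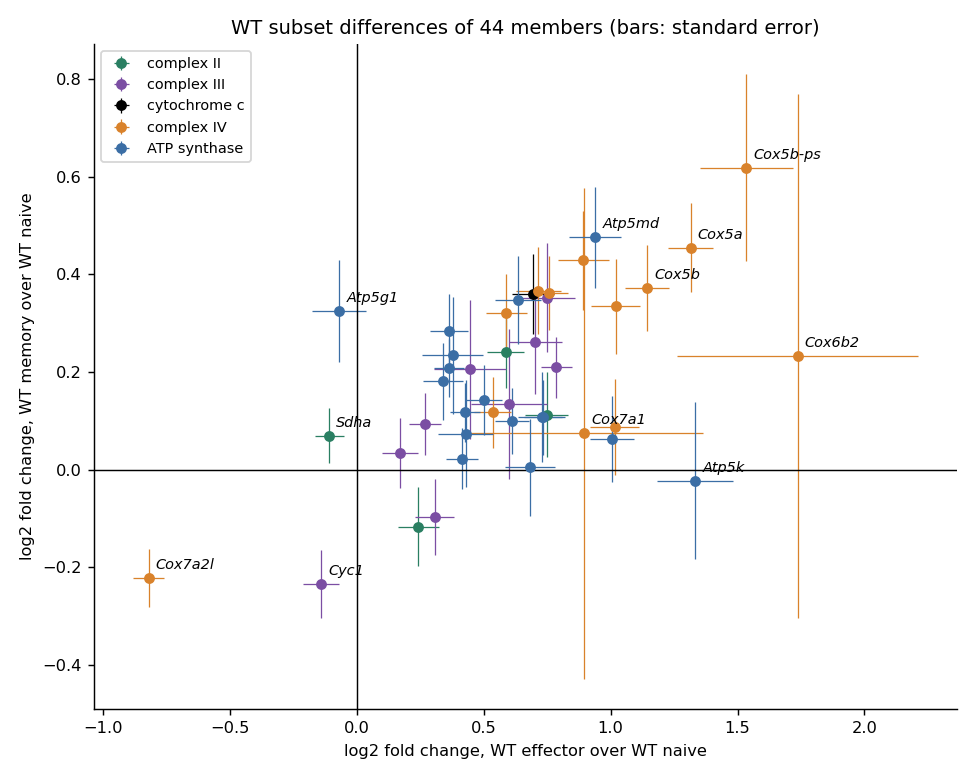
Log2 fold change of the 44 members in WT effector over WT naive cells (x axis) and WT memory over WT naive cells (y axis), coloured by complex, with standard errors as bars (edgeR). Both axes share the naive libraries. Most points lie to the right of 0, Cox7a2l lies at -0.82 and -0.22, and Cox5a at 1.32 and 0.45.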

How the data were processed

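The libraries were poly-A RNA from CD8+ T cells, primed with random hexamers, 3 per genotype and subset. Per the submitters' processing notes GRCm39 was the build, and DESeq2 1.42.0, featureCounts 2.0.6, HISAT2 2.2.1 and fastp were the tools, and strand use in counting is not given in the sources used here. The deposited values are a signal, read counts divided by 1 size factor for each library, given per subset by the authors. Whole reads were recovered from 100.0% of values (largest deviation 4.53e-06 reads, tolerance 1e-05), with 14771251 to 18049774 reads per library. The authors also deposited log2 fold changes and p-values for each subset, quoted only where named.

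Genotypes were compared within a subset with limma 3.58.1 (trend) on log2(normalised reads + 1), which understates changes of low genes, keeping genes that reached 10 normalised reads in 3 libraries or more. Differences of the genotype effect were limma interaction terms over 18 libraries. WT subsets were compared with edgeR 4.0.16 (quasi-likelihood, TMM) on the recovered reads. All p-values were adjusted by Benjamini-Hochberg over all genes tested, with a threshold of 0.05. R 4.3.3 was used, and the fits were tested on simulated data. Alternatives were edgeR, DESeq2, TMM, library totals, pseudocounts of 0.5 and 5, no filter, 1 fit of all libraries, a replicate block, limma on log2 CPM for WT subsets, and leaving out each library.

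The members and lists were chosen with earlier results of these data known. Named were Hspa9, the members called (up to 15 per genotype comparison, up to 5 per direction otherwise, by size), isoform families, c-subunit, Sdh, cytochrome and inhibitor genes, the mitochondrially encoded subunits, and up to 4 genes of each other list by p. Other genes were named after their values were seen. Of 139 list entries 134 matched a gene. Promoters came from RefSeq (GRCm38.p6), without chromosome 18.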

Additional observations from a re-analysis of the deposited data

Results flagged for a closer look

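The genotype effect differed between subsets, by limma interaction terms at an adjusted p under 0.05, for the following members. Between effector and naive cells the differences on the log2 scale were 0.72 for Uqcrh, 0.69 for Cox7a2l, 0.56 for Atp5g1, 0.46 for Atp5h and 0.40 for Atp5d. For Atp5g1 the 2 effects lay on either side of 0, at -0.31 in naive cells, where it did not pass, and 0.25 in effector cells, where it did, and the difference was lost in 6 of 20 alternatives. Between memory and naive cells the differences were 0.61 for Uqcrh, 0.58 for Atp5d, 0.41 for Uqcrc1, 0.38 for Cox4i1 and 0.32 for Cox7a2l. Atp5d stood at -0.41 in naive and 0.16 in memory cells, the latter not past the threshold. Between memory and effector cells the difference was -0.38 for Cox7a2l. The naive groups also differed in sex markers, so in the naive comparisons genotype and sex cannot be told apart.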

How the results depend on the processing

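No named call changed direction in any alternative: of the named members' values under the alternatives, 695 kept their side of the threshold and 107 lost it. Scaled to library totals, the members called were 8 in naive cells (against 15) and 2 for the effector minus naive difference (against 8). In effector cells (4 called) there was 1 with DESeq2, 1 with no filter and 0 in a single fit of all libraries. Leaving out 1 library at a time gave 8 to 24 members called between naive genotypes, 0 to 4 between effector and 2 to 11 between memory genotypes. For the differences it gave 5 to 10 (effector minus naive), 2 to 9 (memory minus naive) and 1 (memory minus effector). In WT cells it gave 38 to 41 for effector against naive, 15 to 22 for memory against naive, and 34 to 40 between the cultured subsets. The cause of these shifts was not tested, though fewer libraries and, with no filter, more genes tested enter some of them. Depth limits Cox7a1, with group means of 9.48 to 15.7 normalised reads, and Cox6b2, with 8.91 to 30.4.

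With the replicate number as a block, the members called between genotypes were 10 among naive, 3 among effector and 2 among memory libraries. For the differences they were 7 (effector minus naive), 3 (memory minus naive) and 1 (between the cultured subsets). Same-numbered WT and cKO libraries correlated between -0.143 and 0.067 in their deviations, so the numbers were not taken to pair the samples.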
